A study of Mus musculus with 31 samples.

Results

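Regulatory T cells (Tregs) from mammary tumors were compared with Tregs from the lungs of tumor-bearing mice. The comparison used every library of these 2 tissues from KEP mice, 3 of tumor and 3 of lung, which are 6 of the 31 libraries of the series. KEP mice have the genotype K14cre;Cdh1F/F;Trp53F/F on the FVB/N background. In them a keratin 14 promoter drives Cre recombinase in epithelium, where the conditional alleles of E-cadherin and p53 are removed and mammary tumors arise spontaneously. The T cells are not the target of that Cre, and both groups carry the same alleles. Tumors measured 225 mm2, each library came from 1 mouse, and the 3 dates in the library titles are the same for tumor and lung. Cells were sorted as live CD45+ CD3+ CD4+ CD8- CD25+ cells, without a gate on FOXP3. CD25 is also carried by activated conventional CD4 T cells, so the sort defines CD25+ CD4 T cells and not Tregs alone. Both tissues were digested with enzymes, tumors with collagenase A and DNase and lungs with Liberase for a shorter time. The remaining libraries (KEP spleen, tumor-draining lymph node and blood, and WT tissues of wt;Cdh1F/F;Trp53F/F mice, which lack the Cre, pooled from 3 mice each) serve below only to show levels.

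Tregs restrain other lymphocytes. They need the transcription factor FOXP3 and signals through the IL-2 receptor, and in non-lymphoid tissue they take on an effector state with more activation receptors and fewer receptors for recirculation through lymph nodes. In tumors such effector Tregs are known for high CCR8, 4-1BB and PD-1. The lung also holds effector Tregs.

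The libraries held 10727207 to 11502183 counts in tumor and 11596876 to 13241413 in lung. Levels are CPM, the count of a gene scaled to the library's total, with 1 set of TMM factors over all 31 libraries. Values of a gene are given for replicates 1, 2 and 3 of tumor and then of lung. The first number in brackets after them is the log2 fold change, tumor over lung, with its standard error (SE) where given. A gene was called at an adjusted p under 0.05, from edgeR's quasi-likelihood F test with Benjamini-Hochberg adjustment over all genes tested. Genomic positions are those of the count table, on GRCm38.

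The lung libraries were close to each other and the tumor libraries were not. As a sum of CPM, 10 genes shared by all T cells (Lck and Cd3e among them, called pan-T genes here) stood at 109%, 62.9% and 33.1% of the mean lung level in tumor replicates 1, 2 and 3, and at 98.2%, 101% and 101% in lung. The chi-square between pairs of libraries, divided by its degrees of freedom, was 88.4 to 177 among tumor libraries and 10.7 to 16.3 among lung libraries. Stromal genes such as Col1a1 summed to 7249, 16620 and 16360 CPM in tumor, against 35.5, 40.5 and 22.2 in lung, and all 10 tested were called higher. Macrophage and monocyte genes summed to 1131, 7381 and 1915 CPM in tumor, against 45.3, 70.9 and 88.7 in lung, and all 15 were called higher. Tumor replicate 3 also held 2609 CPM of epithelial genes and 5277 of milk and fat cell genes, against at most 209 and 68.3 in the other tumor libraries. Tumor replicate 1 was thus the library with the most T cell reads, and replicate 3 the one with the fewest. None of the stromal, macrophage and epithelial markers was at 0 in every tumor library, and Lum, Ms4a7 and Krt5 were at 0 in every lung library. The surfactant genes Sftpa1, Sftpb and Sftpc of lung epithelium were at 0 in every tumor library, and too low to test. The part of other cells in each result was not tested. In bulk libraries fewer cells of a type and less RNA per cell cannot be told apart.

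**Figure D1:**
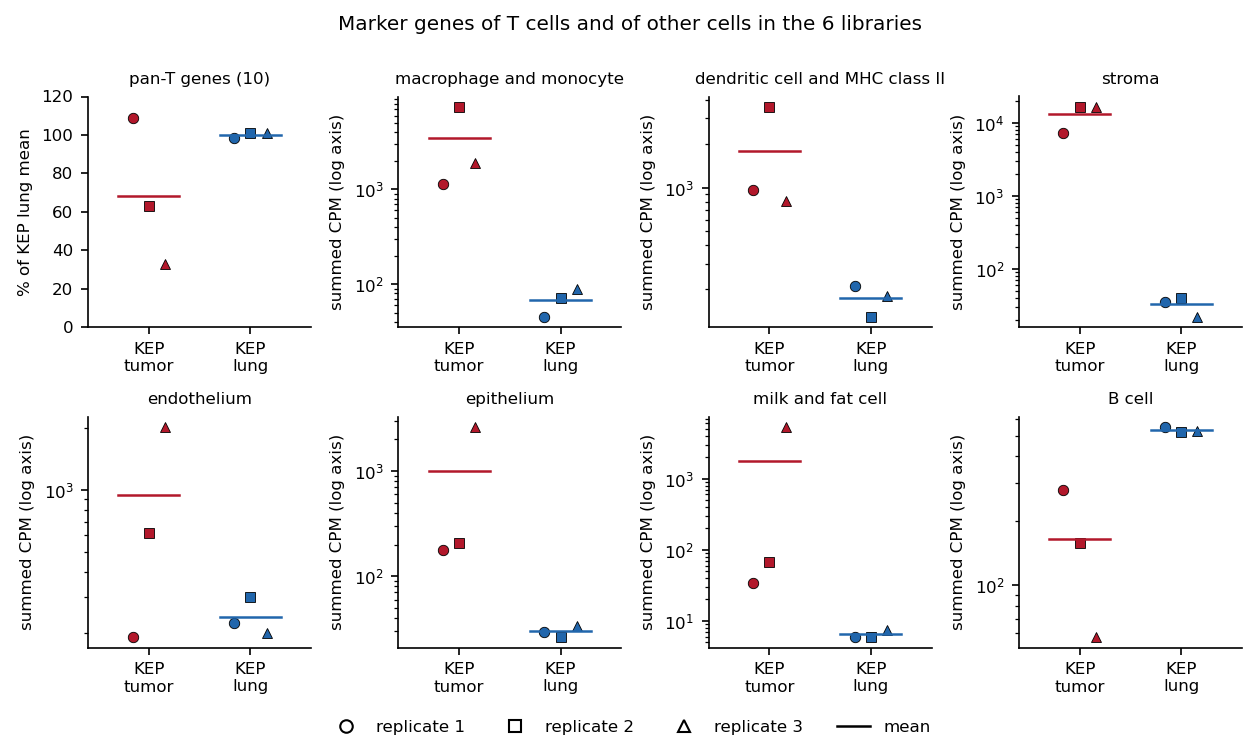
Summed levels of marker lists in each library, with KEP tumor left of KEP lung. The first panel gives the 10 pan-T genes as a percent of the KEP lung mean, and the others give summed CPM on a log axis; symbols are replicates and lines are means. Tumor libraries ran from 33.1% to 109% in the first panel, and those of lung from 98.2% to 101%.

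For that reason 2 scales were used. The first (TMM) assumes that most genes do not change. The second, pan-T scaling, sets the 10 pan-T genes level between libraries, which moves the median log2 fold change over all genes from 0.05 to 0.90. A gene lower on both scales is lower also relative to the pan-T genes, and a gene highest in tumor replicate 1 is highest where T cell reads are most frequent. Since pan-T scaling raises log2 fold changes in general, a higher call on both scales adds little to the TMM call. Values are on the TMM scale unless pan-T scaling is named, and a call that pan-T scaling ended is given as such.

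Of 12850 genes tested, 4210 were called between tumor and lung (32.8%): 2542 higher in tumor (19.8%) and 1668 lower (13%). Changes of at least 2-fold were called for 2157 higher and 750 lower genes. Of the 4210 called genes 4204 had no overlap between the 3 tumor and 3 lung values. At 3 libraries a tissue a call nearly requires this, so it is not a further check. With pan-T scaling 2443 genes were called higher (19%) and 90 lower (0.7%). The shares on each scale are the background for the counts of each list below. Of the lower genes 89 were called lower on both scales, and of the higher genes 2215 were called higher on both. Without lung replicate 1, 2 and 3 in turn 2019, 1290 and 1487 genes were called on the TMM scale, and without tumor replicate 1 6143. Counts of a T cell gene list that moved by over 1.5 times without 1 library are therefore given with it, and those of marker lists of other cells in part. With the title date as a block the counts were 1930 higher and 943 lower. Among the 2542 higher genes the highest tumor value lay in replicate 3 for 1275, in replicate 2 for 1037 and in replicate 1 for 230. Higher genes that peak in replicate 1 were thus a minority, and several Treg lists below differ from that order.

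The targeted genes were looked at in all 6 libraries. Trp53 (p53) had 156, 86.3 and 54.8 CPM in tumor, against 191, 219.9 and 185 in lung and was not called (-1.0, adjusted p = 0.0756). Its tumor values followed the pan-T order. Cdh1 (E-cadherin) had 6.02, 9.71 and 228 CPM in tumor, against 3.43, 5.12 and 8.11 in lung, also not called (3.90, adjusted p = 0.0886), with the high value in the library rich in epithelial genes. Neither gene checks the genotype labels of T cells. Cd8a, which the sort excluded, had 0, 3.42 and 3.89 CPM in tumor, against 0, 0 and 0.186 in lung.

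Most core Treg genes named here overlapped between tumor and lung. Of 14 Treg identity genes 2 were called higher and 1 lower, with a median log2 fold change of 0.21 (0.77 with pan-T scaling). Foxp3, the lineage factor (chromosome X, 7579676 to 7595243), had 1619, 855 and 466 CPM in tumor, against 1381, 1498 and 1451 in lung and was not called (-0.55, SE 0.42, adjusted p = 0.349). Its exons overlap Ccdc22 and Ppp1r3f, and whether counting used the strand is not given in the sources used here. With pan-T scaling the log2 fold change of Foxp3 was -0.02, and without tumor replicate 1 it was -1.14 and called (adjusted p = 0.0192). Ctla4, the receptor that strips costimulatory ligands, had 3375, 2543 and 883 CPM in tumor, against 2573, 2969 and 2561 in lung (-0.25, adjusted p = 0.703). For both genes the tumor range enclosed the lung values, and the order of tumor replicates was that of the pan-T genes. Ikzf2 (Helios), a stabiliser of the Treg state, had 818, 464 and 344 CPM in tumor, against 541, 535 and 409.8 in lung (0.14, adjusted p = 0.775). Il2ra, the CD25 chain used in the sort, had 2942, 1095 and 1247 CPM in tumor, against 1140, 799.5 and 941 in lung (0.88, adjusted p = 0.146). Il2ra was called with pan-T scaling (1.51, adjusted p = 0.0194), and the gate selects on its product. Cd4, a gene of the gate, had 970, 566 and 305 CPM in tumor, against 1056, 1109 and 1103 in lung (-0.82, adjusted p = 0.155). Cd3e had 580, 351 and 166 CPM in tumor, against 632.5, 720 and 708 in lung (-0.91, adjusted p = 0.143). Neither was called, but in both every tumor value lay below every lung value. Reads of genes that define the labelled cell type were thus present in all 6 libraries. With 1 library left out, the identity list had 1 higher without any 1 lung library, 4 higher without tumor replicate 3 and 2 lower without tumor replicate 1.

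Members of the identity list that were called pointed both ways. Ikzf4 (Eos), a partner of FOXP3, had 351, 177 and 165 CPM in tumor, against 80.6, 77.1 and 84.1 in lung (1.53, adjusted p = 0.0137). Itgb8, the integrin β8 chain (chromosome 12, 119158022 to 119238802), had 187, 109 and 101 CPM in tumor, against 43.8, 34.2 and 32.4 in lung (1.85, SE 0.27, adjusted p = 0.00672). Both were higher on both scales and highest in tumor replicate 1. The call for Ikzf4 was lost when any 1 lung library was left out (adjusted p 0.00185 to 0.0697 over the 6 fits that leave out 1 library). The limit on overlapping exons given for Foxp3 also holds for Ikzf2, Ikzf4, Bhlhe40, Penk, Itgav, Ltbp3, Bcl2, Sidt1, Klf3, Gpr15, Gata3, Jun, Hspe1, Hspa1a, Ppp1r15a, Jak1, Tpi1, Aldoa, Slc2a1, Pfkm, Hif1a, Car9, Oasl1, Irf9, Irf7, Ciita, Irf1, Pdia6, Cxcr5, Ccr9 and Mtf1. Nrp1 (neuropilin 1), a surface receptor of thymus-derived Tregs, had 258, 249 and 194 CPM in tumor, against 615, 513 and 628 in lung and was called lower (-1.32, adjusted p = 0.00548), but not with pan-T scaling (-0.53, adjusted p = 0.36).

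A set of effector Treg genes, activation receptors among them, was higher in tumor. Of 18 genes of this list 7 were called higher and 1 lower, on both scales, with a median of 0.31 (1.02 with pan-T scaling). Ccr8, a chemokine receptor of tissue and tumor Tregs (chromosome 9, 120092133 to 120094906), had 307, 115 and 103 CPM in tumor, against 31.9, 19.4 and 27 in lung (2.74, SE 0.48, adjusted p = 0.00997). Tnfrsf9, the costimulatory receptor 4-1BB (chromosome 4, 150914562 to 150946102), had 2444, 834 and 1045 CPM in tumor, against 369, 208 and 269 in lung (2.36, SE 0.47, adjusted p = 0.0139). In both genes each tumor library lay above each lung library, and the T cell-rich replicate 1 was far above the other 2. Bhlhe40, a transcription factor of activated T cells, had 2359, 1142 and 1380 CPM in tumor, against 467, 244 and 404 in lung (2.13, adjusted p = 0.0102). Cd83, an activation marker shared with dendritic cells, had 285, 173 and 296 CPM in tumor, against 47.8, 24.1 and 39 in lung (2.78, adjusted p = 0.00466). Tnfrsf8 (CD30) had 91.1, 24.6 and 50.2 CPM in tumor, against 16.6, 4.65 and 10.3 in lung (2.40, adjusted p = 0.0299), and Id2, a repressor of E proteins, had 1258, 503 and 501 CPM in tumor, against 183, 159 and 239.7 in lung (1.96, adjusted p = 0.0166). Cd86, a costimulatory ligand of antigen-presenting cells, was the last of the 7 and highest in the macrophage-rich replicate 2 (25.6, 38.4 and 21.5 CPM in tumor, against 12.6, 14.5 and 13.9 in lung), at a log2 fold change of 1.07 (adjusted p = 0.021). Irf4, a driver of effector Tregs, was the gene called lower, with 343, 110.4 and 111 CPM in tumor, against 694, 617 and 696 in lung (-1.83, adjusted p = 0.0297). Icos, Tigit, Prdm1 and Batf of the same list were not called on either scale. Without lung replicate 2 or 3 the calls for Ccr8 and Tnfrsf9 were lost (adjusted p 0.0021 to 0.0537 over the 6 fits for Ccr8 and 0.00584 to 0.0693 for Tnfrsf9), with log2 fold changes of 2.05 to 3.01 and 1.73 to 2.61. The counts of this list moved to 4, 2 and 1 higher without lung replicates 1, 2 and 3, 0 lower without any 1 lung library and 4, 0 and 2 lower without tumor replicates 1, 2 and 3. The call of Bhlhe40 was lost without lung replicate 3.

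The levels of these receptors were also set beside those of other KEP tissues. Ccr8 ranged from 4.3 to 30.1 CPM over the 9 libraries of KEP spleen, lymph node and blood and from 11.6 to 13.3 in WT lung, so that KEP lung lay partly inside the range of lymphoid tissue and tumor above it. Tnfrsf9 ranged from 34.7 to 127 CPM and Pdcd1 from 24.8 to 54 CPM in the same 9 libraries, and for both genes the order was tumor above KEP lung above lymphoid tissue and blood, without overlap. WT lung ranged from 75.6 to 133 CPM for Tnfrsf9 and from 33.7 to 54.8 for Pdcd1, at the lymphoid level.

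**Figure D2:**
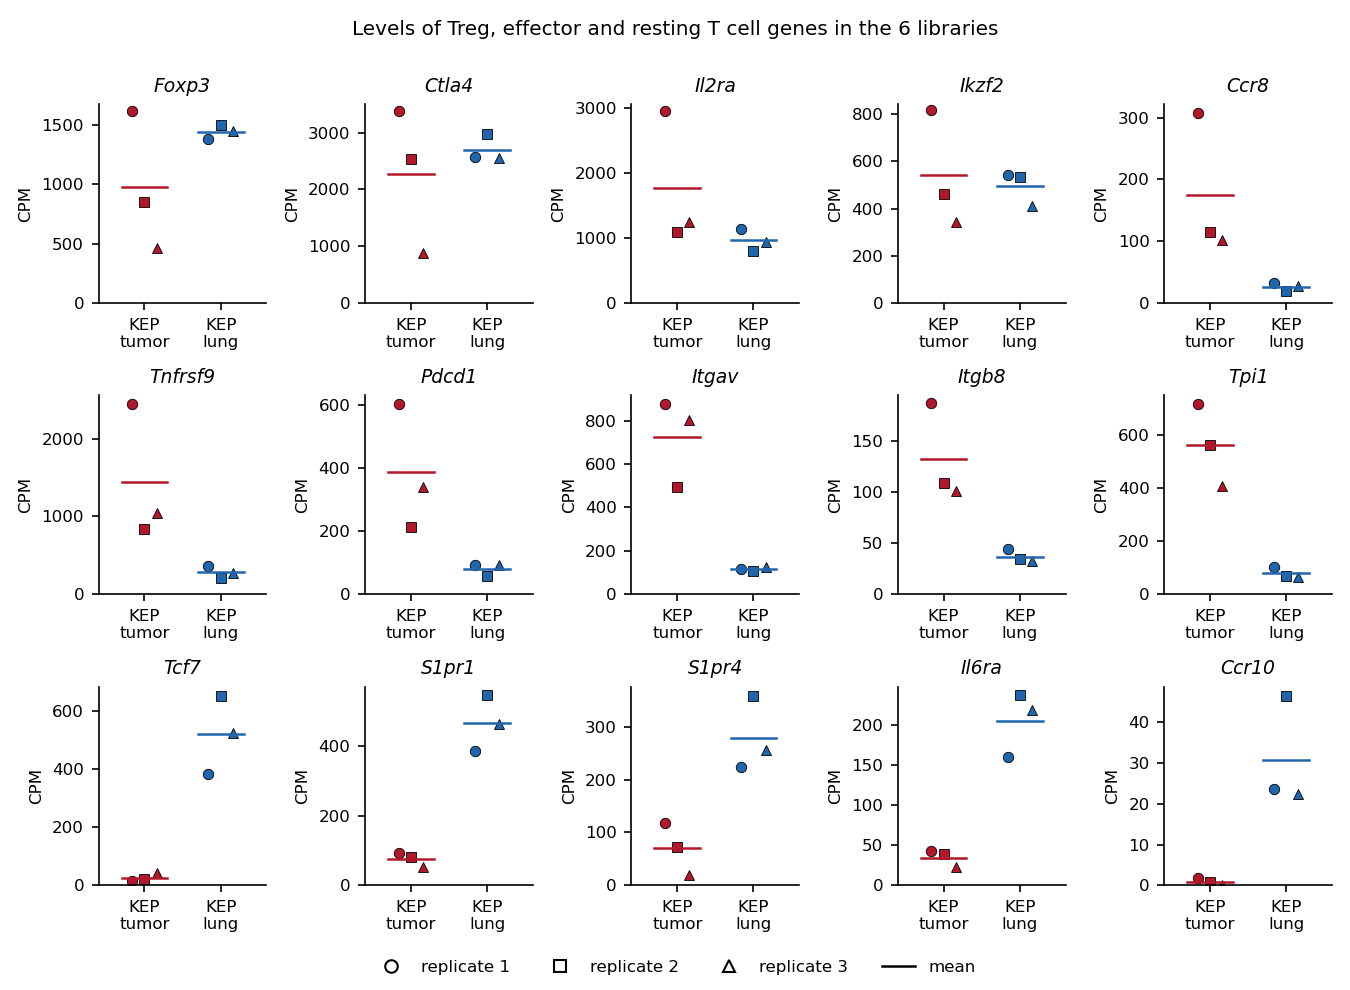
CPM of 15 genes in each library (linear axes from 0), KEP tumor left of KEP lung; symbols are replicates and lines are means. Foxp3, Ctla4 and Ikzf2 overlapped between tissues, Ccr8 to Tpi1 were higher in all 3 tumor libraries, and Tcf7 to Ccr10 were lower in all 3.

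Of 13 inhibitory receptor genes 2 were called higher and none lower (median 0.10, 0.66 with pan-T scaling). Of all genes tested 19.8% were called higher and 13% lower. Pdcd1 (PD-1, chromosome 1, 94038305 to 94052553) had 602, 214 and 340.4 CPM in tumor, against 91.2, 56.8 and 91.9 in lung (2.28, SE 0.42, adjusted p = 0.0111), without a call when lung replicate 2 or 3 was left out (adjusted p 0.0075 to 0.0561 over the 6 fits). Cd200, the ligand of an inhibitory receptor on myeloid cells, had 40.3, 61.7 and 96.4 CPM in tumor, against 9.28, 7.59 and 4.1 in lung (3.26, adjusted p = 0.00592); its tumor order was the reverse of that of the pan-T genes. Lag3 had 102, 149 and 23.4 CPM in tumor, against 30.9, 19.7 and 17.4 in lung (2.02, adjusted p = 0.0541) and Havcr2 (TIM-3) had 84, 75.7 and 32.4 CPM in tumor, against 35.9, 34.9 and 38.4 in lung (0.82, adjusted p = 0.11). With pan-T scaling Lag3 and Entpd1 (CD39) were called too (adjusted p = 0.00938 and 0.019). Tox, Tigit and Nt5e (CD73) were not called on either scale. For this list the counts became 1 higher without lung replicate 2 or 3, 5 higher without tumor replicate 3 and 3 lower without tumor replicate 1.

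Of 15 suppressive mediators 12 had enough counts to test, 2 were called higher and none lower (median 0.44). These counts stand beside 19.8% called higher and 13% called lower of all genes tested. Penk, the precursor of enkephalin peptides and a gene of tissue Tregs, had 298, 40.6 and 147 CPM in tumor, against 8.53, 5.03 and 12.5 in lung (4.22, SE 0.79, adjusted p = 0.0116). Pglyrp1, a peptidoglycan-binding protein, had 66.2, 69.7 and 55.6 CPM in tumor, against 21.7, 27.4 and 25.8 in lung (1.36, adjusted p = 0.00382). Gzmb (granzyme B) had 530.2, 510.3 and 129 CPM in tumor, against 110.5, 183 and 109 in lung and missed the threshold (1.54, SE 0.54, adjusted p = 0.0696), but was called with pan-T scaling (2.07, adjusted p = 0.00611). Il10 had 54.3, 59.5 and 10.7 CPM in tumor, against 55.3, 28.2 and 43.8 in lung (-0.03, adjusted p = 0.975) and Areg (amphiregulin) had 380.4, 221 and 139.8 CPM in tumor, against 190.2, 190.4 and 268 in lung (0.20, adjusted p = 0.703), with overlapping groups in both. Fits without 1 library called, for this list, 1 higher without lung replicate 1 or 2 and 5 higher without tumor replicate 3. The call of Penk was lost without lung replicate 1 or 2.

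The genes of both chains of the αvβ8 integrin were called higher in tumor. The αvβ8 integrin releases active TGF-β from its latent complex and is known on effector Tregs. Itgav (chromosome 2, 83724397 to 83806916) had 877, 494 and 803 CPM in tumor, against 115, 108 and 127 in lung (2.65, SE 0.26, adjusted p = 0.00325), a call that held in each of the 6 fits without 1 library, as did that for Itgb8. Unlike Itgb8, Itgav did not follow the pan-T order, with 803 CPM in tumor replicate 3, the library with the fewest T cell reads. Which cells carried the αv transcripts was not tested. Of 15 integrin genes 4 were called higher and 1 lower (median -0.27). The other 2 higher genes, Itga5 and Itgb5, are widespread in fibroblasts and had their lowest tumor value in replicate 1. Itga5 had 80.7, 184 and 185 CPM in tumor, against 0.334, 1.52 and 0.652 in lung (7.51, adjusted p = 0.00256). Itgb5 had 54.2, 249.6 and 203 CPM in tumor, against 4.26, 3.7 and 3.08 in lung (5.53, adjusted p = 0.00433). Itga2, a collagen receptor chain, was the one called lower, with 9.28, 18.2 and 14.2 CPM in tumor, against 47.7, 70.0 and 47.8 in lung (-1.97, adjusted p = 0.00737; with pan-T scaling -1.05, adjusted p = 0.23). Itgae, the CD103 chain that holds T cells near E-cadherin, had 929, 575 and 396 CPM in tumor, against 601, 968 and 736 in lung and was not called (-0.27, adjusted p = 0.57). With 1 library left out, this list had 5 and 2 lower without tumor replicates 1 and 3.

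In the TGF-β list 3 of 15 genes were called higher and 2 lower (median 0.40), beside 19.8% and 13% of all genes tested. Besides Itgb8 the higher genes were Skil and Ltbp3. Skil, a feedback inhibitor of SMAD proteins, had 786, 519 and 834 CPM in tumor, against 305, 229.9 and 237 in lung (1.48, adjusted p = 0.00838). Ltbp3, a latent TGF-β binding protein, had 29.2, 109.7 and 299.7 CPM in tumor, against 1.25, 0.38 and 2.42 in lung. The tumor values of Ltbp3 ran in the reverse of the pan-T order. The lower ones were Tgif1 (-0.74, adjusted p = 0.029) and Smad2 (-0.58, adjusted p = 0.0145). Neither held with pan-T scaling, where Smad2 was at 0.32, or with the date block (adjusted p = 0.0563 for Smad2). Tgfb1, Smad3 and Lrrc32 (GARP) were not called. The counts of this list moved to 0 lower without any 1 lung library and 4 and 1 lower without tumor replicates 1 and 2. The call of Skil was lost without lung replicate 2 or 3, and that of Smad2 without any 1 lung library.

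The clearest lower group was that of resting and recirculating T cells. Of 15 resting regulators tested 9 were called lower and 2 higher (median -1.21, -0.56 with pan-T scaling), and 4 of the 9 were lower on both scales. Tcf7, which encodes TCF-1, the factor of naive and memory-like T cells (chromosome 11, 52252371 to 52283014), had 16.1, 20.7 and 43.6 CPM in tumor, against 385, 653 and 526 in lung (-4.26, SE 0.47, adjusted p = 0.00381). The lowest value lay in the T cell-rich tumor replicate 1, and each tumor library lay far below each lung library. With pan-T scaling the change was -3.13 (adjusted p = 0.0149), and the call held in all 6 fits without 1 library. Over the 9 libraries of KEP spleen, lymph node and blood Tcf7 ranged from 139 to 857 CPM and in WT lung from 987 to 1193, so that KEP lung lay inside the range of the other KEP tissues and tumor below it. Il6ra, the IL-6 receptor chain, had 42.5, 38.8 and 22.8 CPM in tumor, against 160.3, 237 and 219 in lung (-2.56, adjusted p = 0.00373). Txk, a kinase of resting T cells, had 29, 15.8 and 11 CPM in tumor, against 106, 149.9 and 105 in lung (-2.69, adjusted p = 0.00607), and Satb1, a chromatin organiser, had 140.2, 77.2 and 56 CPM in tumor, against 350.3, 451 and 244 in lung (-1.93, adjusted p = 0.0144). These 3 were also lower on both scales. Lef1, the partner of TCF-1, had 47.5, 38.8 and 35.4 CPM in tumor, against 106, 149.7 and 130.3 in lung (-1.65, adjusted p = 0.0037), and Bcl2, a survival factor, had 22.9, 29.6 and 26.9 CPM in tumor, against 99.7, 128 and 119.7 in lung (-2.11, adjusted p = 0.00236). With pan-T scaling both missed the threshold (adjusted p = 0.223 and 0.137), as did Bach2, Foxo1 and Foxp1. Il7r, the IL-7 receptor chain, was not called on either scale (-0.38, adjusted p = 0.327). The 2 higher genes were Igfbp4, with 54.4, 416 and 329 CPM in tumor, against 34.4, 44.4 and 21 in lung, and Id3, with 15.6, 33 and 26.5 CPM in tumor, against 11.1, 12.1 and 11.6 in lung, each lowest in tumor replicate 1; neither was called with the date as a block (adjusted p = 0.0638 and 0.0607). For this list the counts became 0 higher without any 1 lung library, 0 and 1 higher without tumor replicates 2 and 3 and 5 lower without lung replicate 1 or 2.

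Of 11 recirculation genes tested 7 were called lower and none higher (median -1.53, -0.79 with pan-T scaling). S1pr1, the receptor for tissue exit (chromosome 3, 115710433 to 115715055), had 93.2, 81.5 and 52.5 CPM in tumor, against 385, 545 and 463 in lung (-2.61, SE 0.26, adjusted p = 0.00338; -1.90 and 0.00717 with pan-T scaling). S1pr4, a related receptor, had 118, 73.3 and 19.8 CPM in tumor, against 223, 358 and 255 in lung (-1.99, adjusted p = 0.0456), and Sidt1 had 58.6, 37.6 and 19.7 CPM in tumor, against 135, 189.7 and 142 in lung (-2.0, adjusted p = 0.0127). Both were lower on both scales as well. Klf3, a repressor related to KLF2, had 21.1, 40.7 and 46.9 CPM in tumor, against 213, 312 and 232 in lung (-2.78, adjusted p = 0.00468), and Klf2 itself had 107, 95.9 and 128 CPM in tumor, against 142, 187 and 167 in lung (-0.57, adjusted p = 0.0435); neither was called with pan-T scaling (adjusted p = 0.0696 and 0.613). Klf2 was not called with the date block either (adjusted p = 0.0894). Ccr7, the chemokine receptor for lymph node entry, had 1162, 373 and 325 CPM in tumor, against 599, 702 and 319 in lung and was not called (0.20, adjusted p = 0.801). Itgal and Itgb7 were not called. Fits without 1 library called, for this list, 4, 3 and 2 lower without lung replicates 1, 2 and 3 and 4 lower without tumor replicate 2. The call of Sidt1 was lost without lung replicate 2 or 3.

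Chemokine receptors divided. Of 17 genes 5 were called higher and 6 lower (median -0.33). Besides Ccr8 the higher ones included Ccrl2, Ccr1 and Cx3cr1. Ccr1 had 47.8, 121 and 44.3 CPM in tumor, against 3.59, 1.9 and 3.63 in lung and Cx3cr1, a receptor of tissue macrophages, had 42.3, 178 and 59.8 CPM in tumor, against 1.5, 0.664 and 1.3 in lung, both with the peak in the macrophage-rich replicate 2. Ccrl2 had 235, 190.2 and 109 CPM in tumor, against 84.6, 69.2 and 70.4 in lung (1.26, adjusted p = 0.0186). Ccr10, a receptor for skin and mucosal chemokines, was near 0 in tumor, with 1.88, 0.809 and 0.0972 CPM in tumor, against 23.7, 46.4 and 22.4 in lung (-5.04, SE 0.82, adjusted p = 0.00839), on both scales. Ccr4, a receptor of skin and lung homing T cells, had 199, 89 and 86.6 CPM in tumor, against 431, 444 and 429 in lung (-1.79, adjusted p = 0.0126; adjusted p = 0.0613 with pan-T scaling). Ccr6, Ccr9, Cxcr5 and Gpr15 were lower with TMM only, and Ccr6 and Gpr15 were not called with the date block (adjusted p = 0.0542 and 0.0803). Ccr2, Cxcr3, Cxcr4 and Cxcr6 were not called on either scale. With 1 library left out, this list had 3 higher without lung replicate 1, 2 higher without lung replicate 2 or 3 and 3 and 2 lower without lung replicates 2 and 3.

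Genes of the tissue Treg program were called in both directions. Of 16 genes 4 were called higher and 3 lower (median -0.08), beside 19.8% and 13% of all genes tested. Il1rl1, the IL-33 receptor ST2, had 2438, 968 and 1105 CPM in tumor, against 1419, 1212 and 1270 in lung (0.22, adjusted p = 0.68), and Gata3 had 553, 107 and 219.8 CPM in tumor, against 239.7, 157 and 245 in lung (0.46, adjusted p = 0.564). Rora, Klrg1 and Pparg were not called either, and a p that misses the threshold does not show equal levels. Dgat2, an enzyme of triglyceride synthesis, had 234, 43 and 201 CPM in tumor, against 16.1, 11.8 and 13.3 in lung (3.55, adjusted p = 0.0106). Ptgs1 and Hpgds, enzymes of prostaglandin synthesis that macrophages and mast cells also express, were both called higher. Ptgs1 had 8.29, 33.9 and 34.9 CPM in tumor, against 2.51, 2.94 and 2.42 in lung (3.31, adjusted p = 0.0104), and Hpgds had 6.61, 15.7 and 11.6 CPM in tumor, against 2.01, 3.51 and 4.57 in lung (1.76, adjusted p = 0.0309). Il9r, the receptor of the mast cell and T cell cytokine IL-9, had 42.7, 11 and 19.8 CPM in tumor, against 149, 130.5 and 173 in lung (-2.62, SE 0.48, adjusted p = 0.0115) and was lower on both scales. Il18r1 was lower with TMM only (-1.02, adjusted p = 0.0316; 0.0758 with the date block), and Gata1 had 1.18, 1.26 and 0.0972 CPM in tumor, against 4.68, 6.64 and 3.63 in lung (adjusted p = 0.0634 with pan-T scaling). The counts of this list moved to 0 higher without lung replicate 2 or 3, 1 lower without lung replicate 1 or 2, 0 lower without lung replicate 3 and 5 and 1 lower without tumor replicates 1 and 2. The call of Il9r was lost without lung replicate 3, and those of Dgat2 and Ptgs1 without lung replicate 2 or 3.

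Of 19 T helper genes 17 were tested, 3 were called higher and 2 lower (median -0.71), beside 19.8% and 13% of all genes tested. Il17f had 0, 0.0899 and 0 CPM in tumor, against 3.18, 1.04 and 13.3 in lung and Il4 had 0, 0.45 and 0.0972 CPM in tumor, against 3.18, 1.33 and 3.08 in lung, both called lower, though Il4 not with the date block (adjusted p = 0.0667). Ifng had 5.72, 17 and 0.583 CPM in tumor, against 17.7, 26 and 14.8 in lung and Il13 had 3.55, 5.12 and 0.875 CPM in tumor, against 19.6, 0.854 and 8.67 in lung, neither called, Ifng with its wide spread in tumor and Il13 in lung. Il1r2, a decoy receptor for IL-1 known on activated Tregs, had 195, 39.8 and 55.9 CPM in tumor, against 22.1, 14.6 and 15.4 in lung (2.48, adjusted p = 0.0278), and Bcl6 had 64.3, 44.5 and 55.7 CPM in tumor, against 22.9, 25.5 and 20.3 in lung (1.27, adjusted p = 0.00631). Il1r1, the signalling receptor that fibroblasts also carry, was higher with the lowest tumor value in replicate 1 (10.4, 39.7 and 30.8 CPM in tumor, against 4.09, 4.65 and 8.11 in lung). Il5 and Il17a were not called. For this list the counts became 1 higher without any 1 lung library, 1 lower without any 1 lung library, 4 lower without tumor replicate 1 and 1 lower without tumor replicate 2 or 3. The call of Il17f was lost without tumor replicate 2, that of Il1r1 without tumor replicate 2 or any 1 lung library, and that of Il4 without tumor replicate 3 or any 1 lung library.

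Early response genes were high in both digested tissues. Of 15 genes of the T cell receptor early response none was called higher and 1, Cd69, lower (median -0.06, 0.90 with pan-T scaling). Nr4a1, an immediate early gene of antigen receptor signalling, had 2563, 1361 and 3063 CPM in tumor, against 1910, 1644 and 1811 in lung (0.40, adjusted p = 0.375), and Tnfaip3 (A20), an inhibitor of NF-κB, had 3927, 2537 and 1486 CPM in tumor, against 3944, 4177 and 3993 in lung (-0.60, adjusted p = 0.226). Over the 9 libraries of KEP spleen, lymph node and blood, for which the labels state no digestion, Nr4a1 ranged from 16.6 to 97 CPM and Tnfaip3 from 144 to 291. WT lung, digested too, ranged from 1333 to 1758 and from 3571 to 4121 CPM. In 8 of the 15 genes each tumor and each KEP lung library was at least 2-fold above each of those 9 libraries, and in 10 of 22 dissociation stress genes, against 3.31% of all genes tested (425 of 12850). In all 18 the same held for WT lung, and 14 of the 18 were not called between tumor and lung. Tissue, digestion and cell state cannot be told apart here, since digested spleen, node or blood was not analysed here. Fits without 1 library called, for this list, 1 higher without tumor replicate 1 or 2, 0 lower without lung replicate 3 and 4 lower without tumor replicate 1.

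Stress genes were called in both directions between tumor and lung. Of 22 dissociation stress genes 5 were called higher and 4 lower (median 0.18), beside 19.8% and 13% of all genes tested. Fos and Fosb were not called, Fosb having 587, 891 and 2389 CPM in tumor, against 1648, 875 and 1340 in lung (0.02, adjusted p = 0.98). Jun had 379.5, 472 and 604 CPM in tumor, against 158, 192 and 188 in lung (1.45, adjusted p = 0.00686), and Ier3 had 114, 198 and 466 CPM in tumor, against 22, 15.2 and 21.2 in lung (3.76, adjusted p = 0.00726), both in the reverse of the pan-T order. Hspe1 had 57.9, 67.3 and 74.6 CPM in tumor, against 43.5, 28 and 29.8 in lung (0.99, adjusted p = 0.0182). The heat shock gene Hspa1a had 91, 17.5 and 32.6 CPM in tumor, against 8.69, 6.64 and 7.36 in lung (2.64, adjusted p = 0.0208), and its near-identical copy Hspa1b, with which it shares reads, had 158, 29.5 and 79 CPM in tumor, against 14.8, 16.3 and 15.9 in lung. Ppp1r15a, a phosphatase subunit of the integrated stress response, had 779.9, 460.5 and 370.5 CPM in tumor, against 1653, 1789 and 1966 in lung (-1.74, adjusted p = 0.00956). Ier2 had 176, 185 and 182 CPM in tumor, against 518, 588 and 582 in lung (-1.62, adjusted p = 0.00256), and Btg2 had 612, 579.6 and 451 CPM in tumor, against 1385, 1538 and 1364 in lung (-1.37, adjusted p = 0.00525). Mcl1, a survival factor, had 507, 612 and 617 CPM in tumor, against 851, 1061 and 833 in lung (-0.65, adjusted p = 0.0375; 0.0855 with the date block). Cd69, the early activation and retention receptor, had 165, 104 and 72.2 CPM in tumor, against 348, 347 and 372 in lung (-1.64, adjusted p = 0.0107). For these 5 lower genes every tumor value lay below every lung value, but none was called with pan-T scaling (adjusted p = 0.0596, 0.25, 0.295, 0.681 and 0.0928). With 1 library left out, this list had 3 higher without lung replicate 1 and 2 higher without lung replicate 2 or 3. The call of Cd69 was lost without lung replicate 3.

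**Figure D3:**
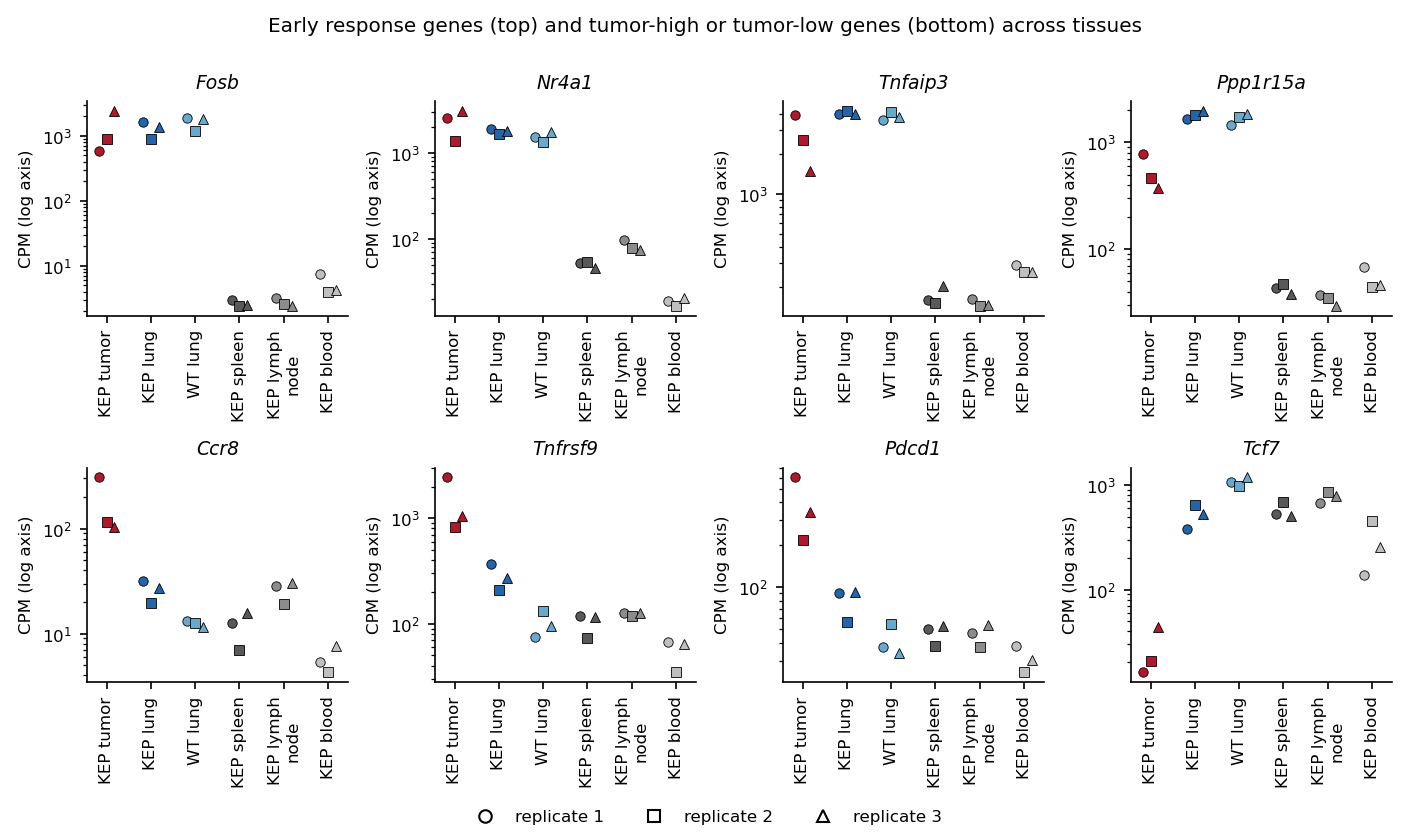
CPM on log axes in KEP tumor, KEP lung, WT lung and KEP spleen, lymph node and blood; symbols are replicates. The upper 4 genes were high in the 3 digested tissues and low in the others, while in the lower row tumor stood apart from lung, above it for Ccr8, Tnfrsf9 and Pdcd1 and below it for Tcf7.

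The counts of NF-κB and IL-2 signalling genes depended on the scale. Of 16 NF-κB genes 3 were called higher and none lower with TMM (median 0.36), and 7 were called higher with pan-T scaling (median 1.03). Nfkbie, an IκB protein, had 457, 232 and 177 CPM in tumor, against 130.5, 107 and 99.3 in lung (1.37, adjusted p = 0.0301), and Bcl2l1 (BCL-XL), a survival factor, had 512, 121 and 184 CPM in tumor, against 86.8, 54.5 and 69.9 in lung (1.95, adjusted p = 0.0375). Both peaked in tumor replicate 1, and both calls were lost without any one lung library, that of Nfkbie also without tumor replicate 2 (adjusted p 0.0121 to 0.114 and 0.0219 to 0.135 over the 6 fits). Bcl2l1 was thus called higher, and Bcl2 lower. Cd40, a receptor of antigen-presenting cells, had 14.2, 14.8 and 14.8 CPM in tumor, against 1.25, 1.8 and 2.05 in lung. Nfkb1, Rela and Tnfaip3 were not called on either scale. Of 16 IL-2 and STAT5 genes 5 were called lower and none higher (median -0.37). Pim2, a survival kinase, had 31.4, 19.5 and 19.6 CPM in tumor, against 80.3, 88.4 and 70.7 in lung (-1.75, adjusted p = 0.00495), and Stat5b had 409, 226 and 166 CPM in tumor, against 651, 773 and 606 in lung (-1.33, adjusted p = 0.0278). Jak1, Socs1 and Socs3 had smaller changes (-0.88, -0.84 and -0.63) and lost the call with the date block (adjusted p = 0.0609, 0.0726 and 0.0682). With pan-T scaling none of the 5 was called, Socs3 was at 0.20, and 2 others, Il2ra and Lif, were called higher (1.51 and 2.63). Il2rb, Il2rg and Stat5a were not called. The counts of the NF-κB list moved to 1 higher without any 1 lung library, 5 higher without tumor replicate 3 and 3 lower without tumor replicate 1. For the IL-2 list the counts became 2 higher without tumor replicate 3, 1 lower without any 1 lung library and 8 and 2 lower without tumor replicates 1 and 2. The call of Socs3 was lost without any 1 lung library, and those of Stat5b, Jak1 and Socs1 without tumor replicate 2 or any 1 lung library.

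Glycolysis genes were higher in tumor, and in the T cell-rich library most of all. Of 17 genes 11 were called higher and none lower, on either scale and with the date block (median 1.27, 2.1 with pan-T scaling), and 9 of the 11 peaked in tumor replicate 1. Tpi1, triosephosphate isomerase (chromosome 6, 124810586 to 124814296), had 715, 560.2 and 409 CPM in tumor, against 104, 70.3 and 66.1 in lung (2.82, SE 0.29, adjusted p = 0.00358). Aldoa, aldolase A, had 1753, 1285 and 888 CPM in tumor, against 389.6, 364 and 409 in lung (1.76, adjusted p = 0.00683), and Pgam1, phosphoglycerate mutase, had 313, 375 and 294 CPM in tumor, against 91.3, 69.5 and 72.6 in lung (2.08, adjusted p = 0.00256). Every tumor value of these enzymes lay above every lung value. Slc2a1, the glucose carrier GLUT1, had 336, 188 and 216 CPM in tumor, against 90.3, 101 and 85.5 in lung (1.43, adjusted p = 0.00835), and Slc16a3, the lactate exporter MCT4, had 341, 187 and 82.2 CPM in tumor, against 43.6, 40.2 and 27.5 in lung (2.46, adjusted p = 0.0155). Pfkl, Pgk1, Eno1, Hk2, Pkm and Pfkm were the other 6, with log2 fold changes between 0.96 and 1.98. Slc2a3, Ldha, Gpi1, Hk1, Pfkp and Gapdh were not called; Gapdh stood at no more than 48.7 CPM and has near-identical pseudogenes, so its count is uncertain. Fits without 1 library called, for this list, 7 higher without lung replicate 2 or 3.

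Of 18 hypoxia genes 8 were called higher and none lower (median 0.63). Bnip3, a mitophagy receptor, had 53.4, 70.4 and 45 CPM in tumor, against 6.27, 7.88 and 6.8 in lung (3.02, SE 0.22, adjusted p = 0.00236). Vegfa, the endothelial growth factor, had 85.7, 188 and 229 CPM in tumor, against 8.53, 9.87 and 5.59 in lung (4.41, adjusted p = 0.00363), in the reverse of the pan-T order, and Adm (adrenomedullin) had 24.1, 19.5 and 26.4 CPM in tumor, against 1.25, 0.949 and 2.89 in lung. P4ha2, a collagen prolyl hydroxylase, had 22, 55.1 and 40.6 CPM in tumor, against 1.25, 0.854 and 2.14 in lung, lowest in replicate 1. Ddit4 (REDD1), an inhibitor of mTORC1, had 794, 296 and 254 CPM in tumor, against 128, 131 and 118 in lung and peaked in replicate 1 (1.83, adjusted p = 0.0244). Hif1a itself, with 882, 687 and 517 CPM in tumor, against 534, 453 and 449 in lung, was not called (0.55, adjusted p = 0.106). Car9, Pdk1 and Higd1a were the other called genes, the last 2 at 0.62 and 0.64. With the date block 5 of the 18 were called, without Car9, Pdk1 and Higd1a (adjusted p = 0.0504, 0.0783 and 0.0879), and with pan-T scaling 7, without Pdk1 and Higd1a and with Hif1a (adjusted p = 0.0383). With 1 library left out, this list had 4 higher without any 1 lung library.

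Promoters of these lists were searched for ACGTG, the core of the element that hypoxia-inducible factors bind, on both strands of the window from 250 bases before to 50 after each RefSeq start (GRCm38.p6). It was found in 13 of 26 promoters of 16 matched glycolysis genes (50%) and in 13 of 21 of 15 matched hypoxia genes (61.9%). Of all 32851 promoters from RefSeq, 19.6% held it, and of those of the genes tested 25.1%. A match is a description of the letters and not a site in use. No promoter searched of Tpi1, Pfkl, Eno1 or Adm held ACGTG. The promoters of 2 genes described above, chosen because they hold a match, are given 5′ to 3′ to show where the element lies. Capitals mark the match, which in Bnip3 reads the same on both strands (CACGTG), so that the 2 matches overlap.
Pgam1 (chr19:41911621-41911920, plus strand): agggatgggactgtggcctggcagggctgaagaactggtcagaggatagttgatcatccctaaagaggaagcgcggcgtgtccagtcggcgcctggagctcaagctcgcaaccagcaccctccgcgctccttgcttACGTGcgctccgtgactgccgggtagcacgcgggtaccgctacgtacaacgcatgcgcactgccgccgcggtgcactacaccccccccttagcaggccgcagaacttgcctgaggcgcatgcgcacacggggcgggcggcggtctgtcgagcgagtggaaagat
Bnip3 (chr7:138909457-138909756, minus strand): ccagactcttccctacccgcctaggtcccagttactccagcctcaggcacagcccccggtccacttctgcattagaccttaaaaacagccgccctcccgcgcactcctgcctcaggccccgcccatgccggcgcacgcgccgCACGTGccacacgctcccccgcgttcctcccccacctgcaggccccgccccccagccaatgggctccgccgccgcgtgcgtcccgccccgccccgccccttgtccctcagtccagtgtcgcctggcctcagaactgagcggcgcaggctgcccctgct
The match began 114 bases before the start in Pgam1 and 108 bases before it in Bnip3.

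Type I interferon genes were the T cell gene list with the most calls. Of 28 genes 20 were called higher and none lower (median 1.71, 2.45 with pan-T scaling), and 18 with the date block. Rsad2 (viperin), an antiviral enzyme (chromosome 12, 26442753 to 26456452), had 24.7, 38.7 and 42.9 CPM in tumor, against 2.84, 2.66 and 2.42 in lung (3.75, SE 0.29, adjusted p = 0.00236). Bst2 (tetherin), which holds virions at the cell surface, had 97.9, 113 and 95.7 CPM in tumor, against 30.8, 22.9 and 31.3 in lung (1.86, adjusted p = 0.00295). Ifit1, an antiviral effector, had 34.2, 46 and 29 CPM in tumor, against 1.92, 1.8 and 4.01 in lung (3.83, adjusted p = 0.00369). Mx1, another, had 30.9, 45.5 and 18.3 CPM in tumor, against 1.92, 1.33 and 2.8 in lung (3.97, adjusted p = 0.00426). Isg15, a ubiquitin-like modifier, had 86, 70.2 and 50.2 CPM in tumor, against 19.9, 15.2 and 16.6 in lung (2.0, adjusted p = 0.00405), the one of these with its peak in tumor replicate 1. Usp18, the enzyme that removes ISG15, had 21.5, 30.5 and 22.9 CPM in tumor, against 2.34, 1.61 and 3.45 in lung, and the sensor gene Ifih1 (MDA5) had 37.6, 47.3 and 31.5 CPM in tumor, against 12.5, 8.82 and 10.7 in lung. In all of these genes the groups did not overlap, but 15 of the 20 peaked in tumor replicate 2, the library with the most macrophage and dendritic cell reads, against 1037 of the 2542 higher genes overall. Ifi44 and Oasl1 were at or near 0 in lung: Ifi44 had 6.42, 17.6 and 31.1 CPM in tumor, against 0.0836, 0 and 0 in lung, and Oasl1 had 5.72, 19.6 and 13.8 CPM in tumor, against 0, 0.0949 and 0 in lung. Of the genes of the signalling complex, Stat2 and Irf9 were not called. Stat2 was at 0.62 (adjusted p = 0.0913) and Irf9 at -0.41 (adjusted p = 0.185). Irf7, an amplifier of the response, was called higher (0.96, adjusted p = 0.0106). In KEP spleen, lymph node and blood Ifit1 ranged from 2.86 to 9.56 CPM and Mx1 from 1.7 to 5.12, below every tumor library. Rsad2 ranged from 0.0848 to 39.4 CPM there, into the tumor range. In 11 of the 28 genes each tumor library was at least 2-fold above each of these 9 libraries. The same held for 1687 of all 12850 genes tested.

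The promoters of this list were searched for GAAANNGAA, the core of the interferon-stimulated response element, on both strands of the same window. It was found in 11 of 23 promoters of 19 matched genes (47.8%), against 8.56% of all promoters and 7.33% of those of the genes tested. Promoters of 2 of the genes above, also chosen because they hold a match, show the element, in capitals, in each orientation (in Rsad2 on the opposite strand, and in Bst2 2 overlapping matches).
Rsad2 (chr12:26456403-26456702, minus strand): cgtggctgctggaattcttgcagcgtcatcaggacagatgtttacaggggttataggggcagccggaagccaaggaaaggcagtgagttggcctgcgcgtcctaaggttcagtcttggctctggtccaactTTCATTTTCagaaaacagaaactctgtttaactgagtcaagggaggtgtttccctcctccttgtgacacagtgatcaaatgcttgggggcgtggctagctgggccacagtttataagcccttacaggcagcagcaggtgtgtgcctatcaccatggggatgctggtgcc
Bst2 (chr8:71537423-71537722, minus strand): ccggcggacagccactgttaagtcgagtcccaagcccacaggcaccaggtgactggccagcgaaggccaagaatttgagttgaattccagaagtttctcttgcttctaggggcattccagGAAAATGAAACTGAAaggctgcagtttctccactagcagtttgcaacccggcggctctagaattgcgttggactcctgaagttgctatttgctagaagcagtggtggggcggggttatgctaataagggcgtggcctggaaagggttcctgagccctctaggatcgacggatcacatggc
The first match began 119 bases before the start in Rsad2 and 130 bases before it in Bst2.

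Interferon gamma response genes had no such shift. Of 20 genes 3 were called higher and 2 lower (median 0.02, 0.61 with pan-T scaling). The higher ones were Cxcl9, Irf8 and Ciita, genes of myeloid and dendritic cells, with the peak in tumor replicate 2 in each; Cxcl9 had 5.13, 92.9 and 12.7 CPM in tumor, against 0.167, 0.0949 and 0.28 in lung. Irf8 and Ciita were not called with the date block (adjusted p = 0.1 and 0.142). Irf1 was called lower, with 395, 473 and 215 CPM in tumor, against 597, 930.4 and 875 in lung (-1.14, adjusted p = 0.0407), but not with the date block (adjusted p = 0.0647) or pan-T scaling, and Socs1 is given above. The guanylate-binding proteins Gbp2, Gbp3, Gbp5 and Gbp7 and the genes Igtp, Irgm1 and Tap1 were not called on either scale. Cd274 (PD-L1) had 423, 259.8 and 128 CPM in tumor, against 219.7, 167 and 210.2 in lung (0.45, adjusted p = 0.428). The counts of this list moved to 0 higher without any 1 lung library, 1 and 6 higher without tumor replicates 2 and 3, 0 lower without any 1 lung library and 1 lower without tumor replicate 2. The calls of Cxcl9 and Irf1 were lost without any 1 lung library, and that of Ciita without tumor replicate 2 or any 1 lung library.

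**Figure D4:**
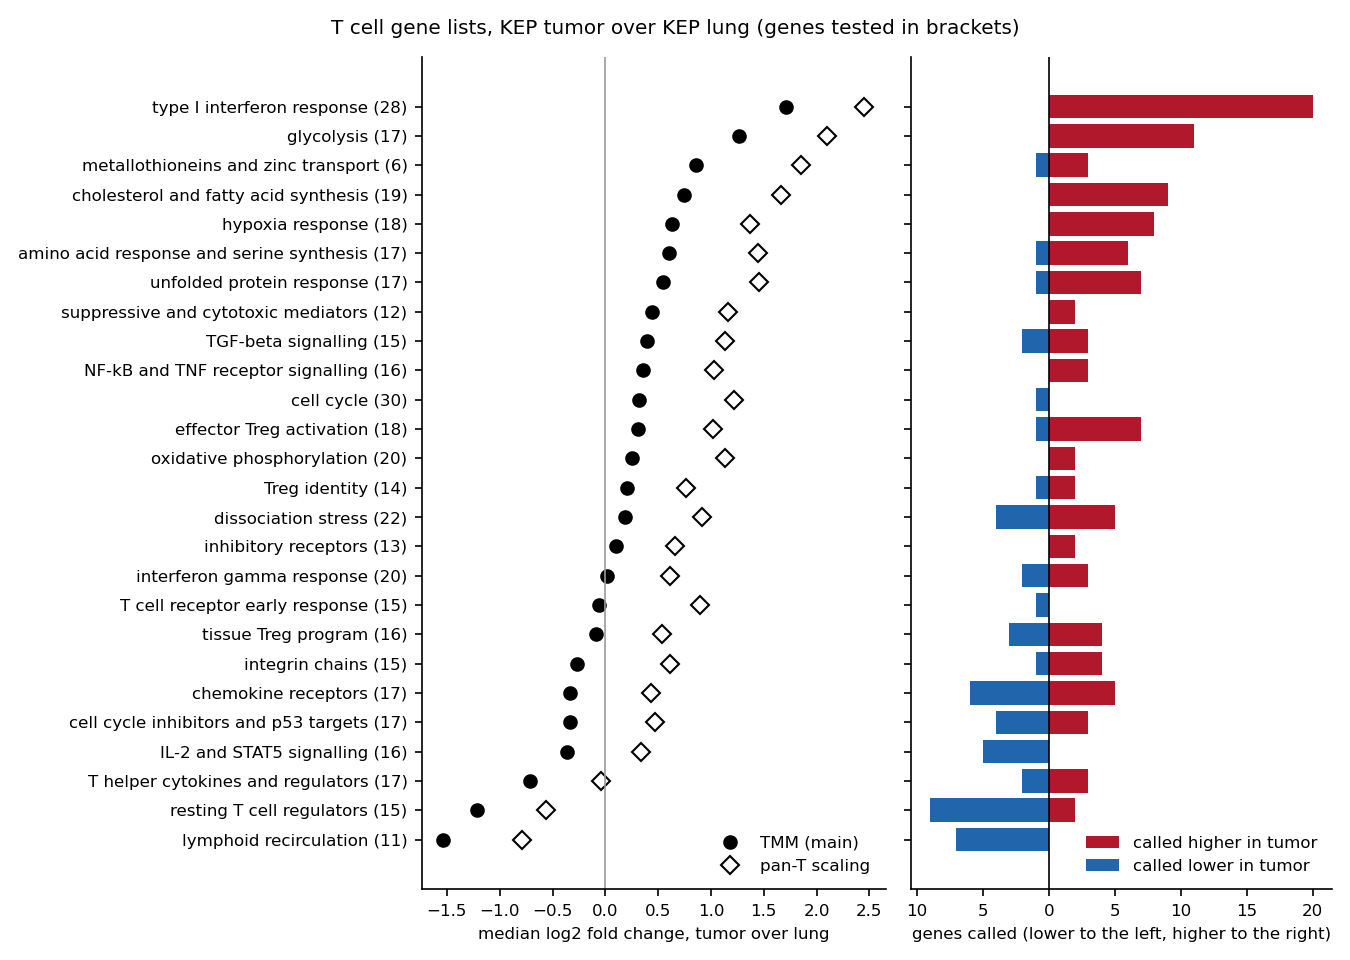
Median log2 fold change of 26 T cell gene lists, tumor over lung, with TMM (filled) and pan-T scaling (open), and the number of genes called higher (red, right) and lower (blue, left) with TMM. Type I interferon and glycolysis lists stood at the top, at 1.71 and 1.27, and lymphoid recirculation at the bottom, at -1.53; some lists share members.

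Lipid and stress metabolism genes were called higher in part. Of 19 cholesterol and fatty acid genes 9 were called higher and none lower (median 0.75), and 6 of them with pan-T scaling. Sqle, squalene epoxidase, had 36.9, 45.9 and 75.2 CPM in tumor, against 17.1, 9.39 and 12.8 in lung (2.03, adjusted p = 0.0103). Scd1, a desaturase of fat and milk-forming cells, had 19.6, 72.1 and 300.5 CPM in tumor, against 1.09, 0.569 and 1.77 in lung, with the peak in the library rich in milk and fat cell genes. Srebf1, Srebf2 and Fasn were not called. Of 17 amino acid response genes tested 6 were called higher and 1 lower (median 0.60). Slc3a2, the heavy chain of amino acid carriers, had 422, 318 and 363 CPM in tumor, against 178, 193 and 183 in lung (1.01, adjusted p = 0.00673), and Asns, asparagine synthetase, had 24.6, 43.5 and 44.9 CPM in tumor, against 6.27, 3.51 and 6.43 in lung (2.81, adjusted p = 0.00525). Sesn2 was the lower one (-0.93, adjusted p = 0.0139; 0.993 with pan-T scaling), and Atf4 was not called. Of 17 unfolded protein genes 7 were called higher and 1 lower (median 0.54), each of the 7 highest in tumor replicate 3 and 2 of them called with the date block. Pdia6, a disulfide isomerase, had 240.2, 255 and 368 CPM in tumor, against 171, 114 and 124 in lung, and Dnajb9, a co-chaperone, was the lower one with 23.2, 35.9 and 68.7 CPM in tumor, against 103, 119 and 97.5 in lung, though not called with the date block (adjusted p = 0.051) or pan-T scaling (adjusted p = 0.871). Metallothioneins bind zinc and copper. Mt1 had 28.4, 44.7 and 114 CPM in tumor, against 1.67, 0.949 and 0.559 in lung (5.87, adjusted p = 0.0049) and Mt2 had 15.5, 25.7 and 74.1 CPM in tumor, against 0.251, 0 and 0.466 in lung, both in the reverse of the pan-T order, and of the 6 genes of that list tested 3 were called higher and 1 lower. Of 20 oxidative phosphorylation genes 2, Cycs and Cox7a2, were called higher and none lower, and neither with the date block (adjusted p = 0.0687 and 0.0916) or pan-T scaling (adjusted p = 0.0646 and 0.0597). For the cholesterol and fatty acid synthesis list the counts became 5 higher without lung replicate 1 and 1 higher without lung replicate 2 or 3. Fits without 1 library called, for the amino acid response and serine synthesis list, 0 lower without lung replicate 1 or 2 and 4 lower without tumor replicate 1. With 1 library left out, the unfolded protein response list had 4 higher without lung replicate 1, 0 higher without lung replicate 2 or 3, 3 higher without tumor replicate 2, 0 lower without any 1 lung library, 2 lower without tumor replicate 1 or 3 and 0 lower without tumor replicate 2. The counts of the metallothioneins and zinc transport list moved to 0 lower without any 1 lung library and 0 lower without tumor replicate 2. For the oxidative phosphorylation list the counts became 0 higher without lung replicate 2 or 3 and 5, 0 and 1 higher without tumor replicates 1, 2 and 3. The calls of Sqle and Pdia6 were lost without lung replicate 2 or 3, that of Scd1 without any 1 lung library, that of Cycs without tumor replicate 2 or lung replicate 2 or 3, and that of Cox7a2 without tumor replicate 2 or 3 or lung replicate 2 or 3.

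The cell cycle count rested on 1 library. Of 30 genes none was called higher and 1, Pcna, lower, but 15 were called higher without lung replicate 1 (median 0.32, 1.21 with pan-T scaling). Mki67, the marker of cycling cells, had 195, 129 and 136 CPM in tumor, against 316, 121 and 95.2 in lung (-0.20, adjusted p = 0.765), and Top2a had 178, 168 and 168 CPM in tumor, against 249, 37.6 and 39.5 in lung (0.66, adjusted p = 0.526). In both the high lung value was that of replicate 1, and the other 2 lung libraries lay below every tumor library. Pcna had 153, 112 and 134 CPM in tumor, against 294, 204 and 192 in lung (-0.78, adjusted p = 0.0356; 0.06 with pan-T scaling, adjusted p = 0.927), and of the 6 fits without 1 library it was called in that without tumor replicate 1 alone.

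Of 17 cell cycle inhibitors and p53 targets 3 were called higher and 4 lower (median -0.34). Cdkn2a, which encodes p16 and ARF, had 47.4, 93.4 and 110 CPM in tumor, against 3.18, 1.8 and 1.77 in lung (5.22, SE 0.45, adjusted p = 0.00263), in the reverse of the pan-T order. Cdkn2b beside it on the chromosome had 10.3, 11.2 and 12.6 CPM in tumor, against 1.42, 1.04 and 1.49 in lung (3.11, adjusted p = 0.00354). Phlda3 had 4.93, 16.4 and 9.14 CPM in tumor, against 3.01, 1.8 and 2.42 in lung and was not called with the date block (adjusted p = 0.0778). Trp53inp1, Ccng1, Sesn1 and Mdm2, targets of p53, were called lower with TMM (-1.21, -1.03, -0.83 and -0.49) and in no case with pan-T scaling, where Mdm2 was at 0.34; Sesn1 and Mdm2 were not called with the date block (adjusted p = 0.103 and 0.0753). Cdkn1a (p21) had 360.5, 189.6 and 208 CPM in tumor, against 314, 219.6 and 264 in lung and was not called (-0.07, adjusted p = 0.876). In the 9 libraries of KEP spleen, lymph node and blood it ranged from 3.11 to 12.1 CPM. Fits without 1 library called, for this list, 1 lower without any 1 lung library and 8 and 1 lower without tumor replicates 1 and 2. The call of Mdm2 was lost without tumor replicate 2 or any 1 lung library.

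With the marker lists of other cells left out, the 12 higher genes with the smallest p, of those changed at least 2-fold without overlap, still included genes known from matrix-forming and myeloid cells. Mmp3 (stromelysin) had 212, 260.3 and 112 CPM in tumor, against 0, 0.0949 and 0 in lung, Lox (lysyl oxidase) had 146, 289.7 and 112 CPM in tumor, against 0.334, 0.759 and 0.28 in lung, and Fbln2 (fibulin 2) had 340.2, 792 and 811 CPM in tumor, against 0.585, 0.0949 and 0.28 in lung. Ptgs2 (COX-2), the inducible prostaglandin synthase, had 211, 468 and 148 CPM in tumor, against 0.501, 0.285 and 0.559 in lung, and Il1rn, the IL-1 receptor antagonist, had 69.1, 119 and 54.6 CPM in tumor, against 0.334, 0.285 and 0.746 in lung. Sdc2, Dpysl3, Ppic, Fcrls, Cthrc1 and Smim3 were at or below 8.63 CPM in each lung library. Laptm4b, a lysosomal membrane protein, was the one with its peak in replicate 1, at 61.5, 37.2 and 47.4 CPM in tumor, against 3.18, 4.65 and 3.82 in lung (3.66, adjusted p = 0.00236).

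The 12 lower genes chosen in the same way included genes known from T cells. Dtx1 (Deltex 1), a Notch target and anergy-linked ubiquitin ligase of T cells (chromosome 5, 120680202 to 120711927), had 5.03, 2.43 and 3.31 CPM in tumor, against 99.5, 178 and 167 in lung (-5.35, SE 0.38, adjusted p = 0.00236). Tnfrsf26, a decoy death receptor, had 3.36, 5.21 and 4.47 CPM in tumor, against 35.7, 50.6 and 49.8 in lung (-3.36, adjusted p = 0.00236). Tppp, a tubulin-binding protein, had 2.17, 2.34 and 3.6 CPM in tumor, against 48.9, 51.3 and 45.3 in lung (-4.14, adjusted p = 0.00236), and Cpne4 (copine 4) had 1.68, 1.62 and 1.56 CPM in tumor, against 20.1, 25.2 and 32.6 in lung (-3.98, adjusted p = 0.00236). These 4 were lower on both scales and in all 6 fits without 1 library. Usp28, Ehd3, Sbk1, Mepce, Entpd5 and Add3 completed the 12 with Bcl2 and Ier2; their log2 fold changes lay between -2.34 and -1.75, and none of the 8 was called with pan-T scaling (adjusted p 0.0536 to 0.25).

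Markers of further cell types were counted as well. Of 7 dendritic cell and MHC class II genes 6 were called higher; Zbtb46, a factor of conventional dendritic cells, had 135, 29.9 and 59.8 CPM in tumor, against 2.59, 1.71 and 2.14 in lung (5.12, adjusted p = 0.00476) and Xcr1 had 12.3, 4.95 and 6.12 CPM in tumor, against 0.334, 0.569 and 1.02 in lung, both with the peak in the T cell-rich replicate 1 and not in replicate 2, where the list summed highest (3593 CPM). Of 9 epithelial genes 7 were called higher, and of 10 endothelial genes 2, Emcn and Cav1 (Cav1 not with the date block, adjusted p = 0.0797, or with pan-T scaling, adjusted p = 0.0512). Of 3 plasma cell genes 3 were called higher, among them Sdc1, which epithelium also expresses, with 19.7, 154 and 189 CPM in tumor, against 4.09, 3.23 and 2.61 in lung. Of the other lists 1 of 7 neutrophil genes (Ltf, 30.3, 4.14 and 91.6 CPM in tumor, against 0.585, 0.285 and 0.559 in lung), 1 of 4 milk and fat cell genes (Fabp4), 1 of 2 lung epithelial genes (Napsa; adjusted p = 0.0638 with the date block) and none of 2 mast cell genes were called higher, and none lower. Ltf peaked in tumor replicate 3, the library rich in milk and fat cell genes, and had a mean of 441 CPM (SD 611) in WT mammary gland. Which cells carried Ltf was not tested. Of 7 CD8 T and NK cell genes Eomes was called higher, with 1.38, 3.42 and 1.26 CPM in tumor, against 0.501, 0.474 and 0.0932 in lung, and Klrb1c (NK1.1) lower, with 0.592, 1.62 and 0.778 CPM in tumor, against 10.2, 20.9 and 19.3 in lung. Of 5 B cell genes Ebf1, at 0 in every lung library and also a gene of fibroblasts and fat cells, was higher (5.92, 18.2 and 10.1 CPM in tumor, against 0, 0 and 0 in lung), and Cd79a lower (1.28, 0.989 and 0.972 CPM in tumor, against 2.92, 2.18 and 2.7 in lung; adjusted p = 0.0768 with the date block and 0.555 with pan-T scaling). Of 6 alveolar macrophage genes 2, Ear2 and Car4, were called lower and none higher, Ear2 having 0, 0.0899 and 0.292 CPM in tumor, against 1.75, 2.85 and 3.45 in lung; with pan-T scaling Car4 had an adjusted p of 0.293. Of 7 red cell and platelet genes Pf4 was higher, with 3.55, 16.5 and 4.86 CPM in tumor, against 0.0836, 0.474 and 0 in lung, and 2 globin genes were lower. Of the 10 pan-T genes, which set the second scale, none was called with TMM (median -0.48), but 8 were called lower without tumor replicate 1. Without lung replicates 1, 2 and 3 in turn the higher calls were 4, 1 and 2 for dendritic cell genes and 3, 2 and 3 for epithelial genes. They were 1, 0 and 0 for plasma cell genes and 1, 0 and 1 for endothelial genes. Without tumor replicate 1, 8 endothelial, 4 milk and fat cell and 3 neutrophil genes were called higher. The call of Xcr1 was lost without lung replicate 2, that of Pf4 without lung replicate 1 or 3, those of Sdc1 and Ear2 without lung replicate 2 or 3, those of Cav1 and Ltf without any 1 lung library, those of Napsa and Eomes without tumor replicate 2 or any 1 lung library, and that of Cd79a without tumor replicate 2 or 3 or any 1 lung library.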

How the data were processed

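RNA of sorted cells was made into stranded mRNA libraries and sequenced, per the labels' protocols. The authors deposited 1 table of whole-number read counts per gene, not normalized; TopHat2 2.1.0, HTSeq and the build GRCm38 are named per the submitters' processing notes, and the strand setting of the counting is not given in the sources used here. Of 24594 genes, 172 were at 0 in every library. Tumor and lung libraries (3 each) were compared with edgeR 4.0.16 in R 4.3.3: TMM factors, filterByExpr with a minimum count of 10, a robust quasi-likelihood fit and an F test, with Benjamini-Hochberg adjustment over 12850 genes and a threshold of 0.05. The SE was derived from the log2 fold change and its F value. The labels give 1 mouse per KEP library and do not tie tumor and lung to the same mouse; p-values measure the spread between these libraries. No pair of libraries agreed within counting noise. Depth was 10727207 to 11502183 counts in tumor and 11596876 to 13241413 in lung, so every tumor library was shallower than every lung library.

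Gene members and the 41 lists were chosen with earlier results of these data known, so lists are given as counts and medians, without a test of their own. Genes were named by rule: in each direction, the 12 smallest p among genes that changed at least 2-fold, reached a mean of 5 CPM, did not overlap and kept their sign with pan-T scaling, leaving out markers of other cells; up to 4 called members of each T cell list and up to 2 of each marker list; and genes of the sort, the Treg lineage and the targeted alleles (Foxp3, Ctla4, Ikzf2, Il2ra, Cd3e, Cd4, Cd8a, Cdh1, Trp53). Other members of the lists are named as context and were chosen after their values were seen. The title dates pair tumor and lung libraries; the deviations of same-date libraries from their group means correlated at -0.02, 0.11 and -0.15. Alternatives were other scalings and filters, more libraries in the fit, the date as a block, sorted cell number as a covariate, a 2-fold threshold, DESeq2 1.42.0, voom in limma 3.58.1, and leaving out each library. Pan-T scaling without tumor replicate 3 was added after the data were seen. A few list members are counted but not reported here by name.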

Additional observations from a re-analysis of the deposited data

How the results depend on the processing

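Against 4210 genes called (2542 higher and 1668 lower), the calls depended most on the scaling, on the samples sharing the spread and on single lung libraries. Pan-T scaling gave 2533 calls, 90 of them lower, and without tumor replicate 3 as well it gave 2526, 348 of them lower. Fits with all 31 libraries gave 8171 (4882 higher, 3289 lower), with 15 KEP libraries 7142 (4036 and 3106), and with 15 KEP libraries and the replicate block 7333 (4137 and 3196). The date as a replicate block, for tumor and lung alone, gave 2873 calls, 1930 higher and 943 lower; 1886 of the higher and 922 of the lower genes were called in both fits. A threshold of 2-fold in the test left 1466 (1277 and 189), and voom called 1650 genes higher. Leaving out 1 library gave between 1290 and 6143 calls, between 897 and 3615 higher and between 393 and 2528 lower. The fewest calls came without lung replicate 2 (1290) and the most without tumor replicate 1 (6143). RLE or upper-quartile factors, other count filters, DESeq2 and the cell number covariate kept the counts within 1.5 times. The cause of these shifts was not tested.

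Of 141 named genes with a test, 107 kept their direction and side of the threshold with pan-T scaling, 28 lost the call, 1 gained it and 5 changed sign: Socs3 (0.20), Smad2 (0.32), Mdm2 (0.34), Mtf1 (0.27) and Pcna (0.0624). With the block 16 lost the call and no other named gene changed. Between 5 and 47 of them lost the call without 1 library, apart from tumor replicate 1, without which 1 lost it and 6 gained it. At 3 libraries a tissue and this spread in tumor, a gene that was not called may still differ.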
